A study of Homo sapiens with 6 samples.

Results

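Ephrins, EPH receptors, semaphorins, plexins and neuropilins are the proteins by which migrating cells and growing axons read their neighbours. The 53 genes of these families were taken by symbol from the arrays of a transfection experiment, and all 53 were measured, among 18424 genes that could be named from 1 symbol. They comprised 8 ephrins, 14 EPH receptors, 20 semaphorins, 9 plexins and 2 neuropilins on 56 probe sets, a probe set being the group of oligonucleotides summarised as 1 transcript. Of these genes, 50 had 1 probe set and 3 (EPHA10, SEMA4D and NRP2) had more, in which case the brightest of them, by its mean over all arrays, stood for the gene. The cells were HEK293T, an established line derived from human embryonic kidney that makes the SV40 large T antigen. In the first group they had received pNTAP-2×flag-VRTN, a plasmid holding the pig VRTN coding sequence with a flag tag, and in the second the pNTAP-2×flag empty vector. RNA was taken 24 hours after transfection, and each group had 3 arrays that the labels call biological replicates. The labels give neither the plasmid's promoter nor the share of cells that took it up, and the protein was from pig in human cells.

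Ephrins are ligands anchored in the cell membrane, the A class by a lipid and the B class by a membrane-spanning segment. They bind EPH receptors, a family of receptor tyrosine kinases, on touching cells, and signals pass into both cells. Semaphorins are secreted or membrane-bound ligands whose receptors are the plexins, and the secreted class 3 semaphorins mostly need a neuropilin as co-receptor. These systems repel or attract axons, steer vessel growth and keep cell populations apart, including at the borders of the somites from which vertebrae form, where ephrin-B2 and EphA4 act in zebrafish.

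The values were log2 signals. Over the 29183 probe sets that were not controls, the median lay between 6.43 and 6.47 in the 6 arrays, and the negative controls had medians between 5.36 and 6.13. Those controls spread widely, so their median is not a detection limit. The human VRTN probe set averaged 6.18 ± 0.10 in the VRTN arrays and 5.10 ± 0.11 in the empty vector arrays (SD, n = 3 each), with limma adjusted p = 0.0194. Bacterial hybridisation spikes averaged 10.60 ± 0.10 in the VRTN arrays and 10.24 ± 0.19 in the empty vector arrays (SD, n = 3 each), a difference of 0.35 with every VRTN array above every empty vector array, and its part in the results was not tested. Of 9 marker genes of HEK293 cells 7 exceeded that control median in all 6 arrays. Of 14 markers of blood, endothelial, fibroblast, liver, muscle and glial cells 9 lay below it in all 6. Another 4 of the 14, COL1A1, COL1A2, ACTA1 and GFAP, exceeded it in all 6. Over all 29183 probe sets 54.1% exceeded it in all 6 arrays and 9423 lay below it in all 6. Of the 9 HEK293 markers 1 had an unadjusted limma p under 0.05 (11.1%, against 5.58% of all probe sets). It was the enolase ENO2, at a log2 fold change of 0.56 with overlap between the groups. Another 2, NEFM (-0.19) and NEFL (-0.14), were lower without overlap (22.2%, against 11.3% of all). By sign 3 of the 9 were higher and 6 lower. None of the 14 markers of other cell types had an unadjusted limma p under 0.05, with log2 fold changes between -0.09 and 0.13. Among the 53 guidance genes, 40 (75.5%) exceeded the control median in all 6 arrays and 2 (EPHA6 and SEMA4A) lay below it throughout. Precision is limited by having 3 arrays in each group.

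The comparison asked which guidance genes differed in cells given the VRTN plasmid. Secreted semaphorins of class 3 had the largest differences: SEMA3C, SEMA3A, SEMA3E and SEMA3D were each lower in all 3 VRTN arrays than in any empty vector array, by 0.28 to 0.50 on the log2 scale. The ligand EFNB2 and the membrane-bound SEMA6A were lower by 0.25, also without overlap. EFNA4, EFNA3, SEMA6B, SEMA6C, PLXNB2 and PLXNA3 lay higher in the VRTN arrays, by 0.17 to 0.27 and without overlap. EFNA1 and SEMA6D were also higher without overlap, by 0.10 and 0.06. No EPH receptor and no neuropilin separated the groups, where 11.3% of all probe sets did, and for so few genes 0 is not far from that share.

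None of these differences passed the test across all probe sets. In limma with Benjamini-Hochberg adjustment 0 of 53 guidance genes passed an adjusted p of 0.05, where 0.0137% of all probe sets did, and the smallest adjusted p was 0.358, for SEMA3C. With a replicate block that pairs the same-numbered arrays 0 of 53 passed too, against 0.0274% of all probe sets, and the smallest adjusted p was 0.190, for SEMA3C and SEMA3A. At an unadjusted limma p under 0.05 there were 9 of 53 guidance genes (17.0%), against 5.58% of all probe sets. Of these, 3 were higher in VRTN (2.65% of all probe sets) and 6 were lower (2.92%). With the replicate block the counts were 6 higher (5.31% of all) and 9 lower (6.19% of all), 15 of 53 together (28.3%, against 11.5%). The arrays of the groups did not overlap for 14 of 53 guidance genes (26.4%), against 11.3% of all probe sets. Of these, 8 were higher (5.39% of all) and 6 lower (5.92% of all). The median log2 fold change was 0.0026 over the guidance genes and -0.0049 over all probe sets. In bulk RNA, fewer cells expressing a gene and less of its RNA per cell cannot be told apart.

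**Figure D1:**
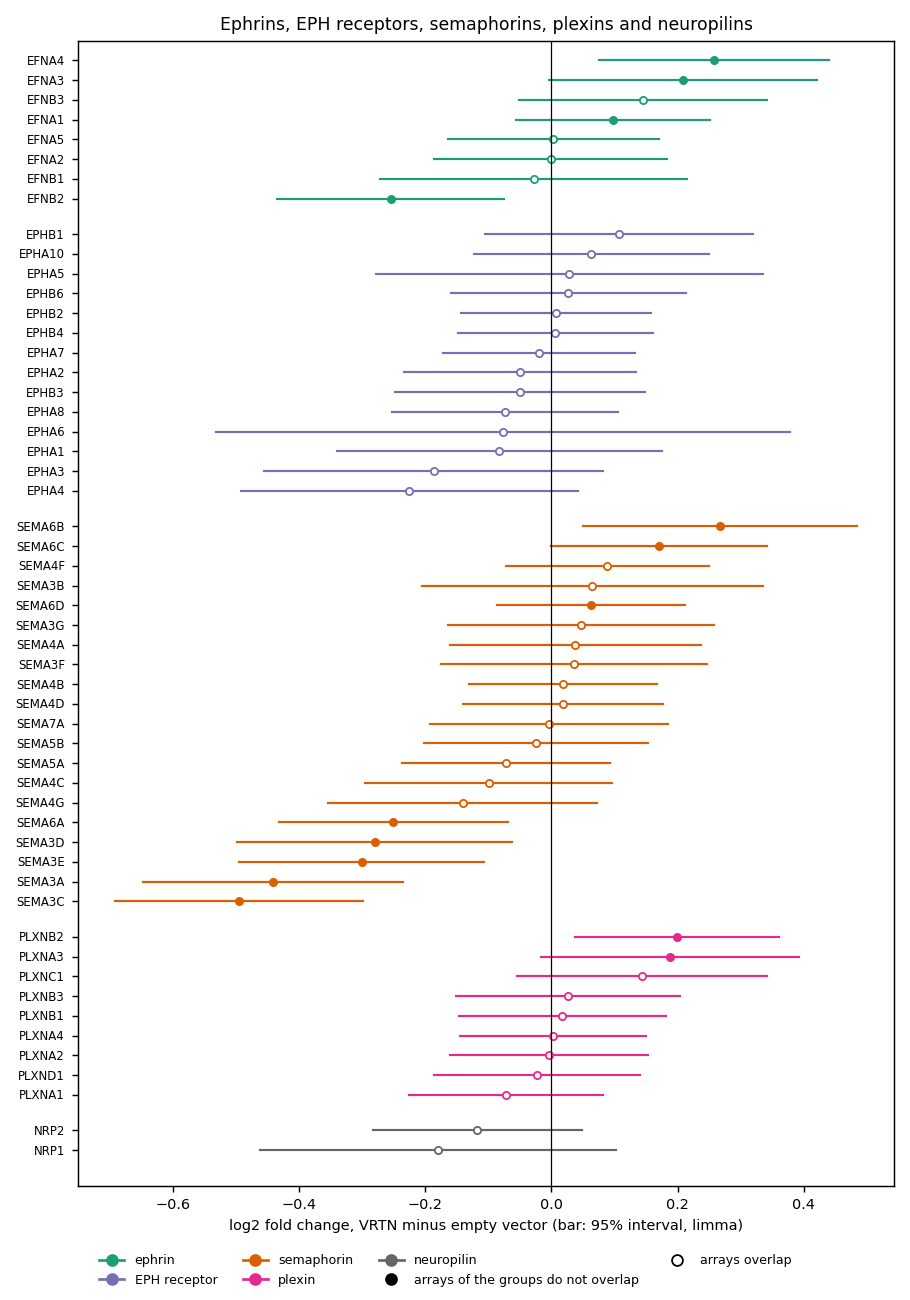
Log2 fold change (VRTN minus empty vector, horizontal axis) of the 53 guidance genes, grouped by family and ordered within it, with the 95% confidence interval from limma as a bar. Filled points mark the 14 genes whose 3 VRTN and 3 empty vector arrays did not overlap, and the lowest points are SEMA3C at -0.50 and SEMA3A at -0.44.

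EFNB2 encodes ephrin-B2, the ligand of EPHB4 that marks arterial endothelium and that also binds EPHA4. Its log2 signal was 7.26, 7.37 and 7.44 in the VRTN arrays and 7.60, 7.55 and 7.70 in the empty vector arrays. Every VRTN array lay below every empty vector array, and the closest values of the groups were 7.44 and 7.55. The log2 fold change was -0.25 (SE 0.078, 95% confidence interval -0.43 to -0.07; limma adjusted p = 0.773), and it was -0.33, -0.17 and -0.26 within the same-numbered arrays. The other B-class ligands did not separate the groups: EFNB1 had a log2 fold change of -0.03 (95% confidence interval -0.27 to 0.21) and EFNB3 of 0.14 (-0.05 to 0.34).

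The A-class ligands EFNA4, EFNA3 and EFNA1 lay on the other side. EFNA4 had log2 signals of 7.95, 7.99 and 8.02 in the VRTN arrays and 7.61, 7.74 and 7.84 in the empty vector arrays. These groups were apart, with a log2 fold change of 0.26 (SE 0.079, 95% confidence interval 0.08 to 0.44; limma adjusted p = 0.773). EFNA3 was measured at 8.94, 8.99 and 9.22 in the VRTN arrays, against 8.81, 8.79 and 8.93 in the empty vector arrays. All 3 VRTN values were higher, though the lowest of them exceeded the highest empty vector value only narrowly (8.94 against 8.93). For EFNA3 the log2 fold change was 0.21 (SE 0.091; limma adjusted p = 0.892), and 0.12 without VRTN replicate 3. EFNA1, a ligand of EPHA2, had 6.29, 6.23 and 6.20 in the VRTN arrays and 6.18, 6.15 and 6.09 in the empty vector arrays. It was apart by a small margin, at a log2 fold change of 0.10 (SE 0.066; limma adjusted p = 0.947). EFNA2 (0.00, 95% confidence interval -0.19 to 0.18) and EFNA5 (0.00, -0.16 to 0.17) differed little on average. The median log2 fold change was 0.10 over the 5 A-class ligands and -0.03 over the 3 B-class ligands.

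Promoters of 3 ligands are shown to compare their make-up: EFNB2, which was lower with VRTN, and the neighbours EFNA4 and EFNA3, which were higher. The sequences are from RefSeq (GRCh38.p14), from 250 bases before to 50 after an annotated start, 5′ to 3′ on the gene's strand, and capitals mark the letters GGGCGG or their complement CCGCCC, the GC box bound by SP1-family factors.
EFNB2 (chr13:106535613-106535912, minus strand): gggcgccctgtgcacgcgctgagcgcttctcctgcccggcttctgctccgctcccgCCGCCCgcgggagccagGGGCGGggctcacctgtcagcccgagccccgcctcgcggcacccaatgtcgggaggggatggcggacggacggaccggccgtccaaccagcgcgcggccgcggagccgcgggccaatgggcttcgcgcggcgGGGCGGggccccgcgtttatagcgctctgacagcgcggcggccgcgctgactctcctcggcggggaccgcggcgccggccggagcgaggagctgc
EFNA4 (chr1:155063490-155063789, plus strand): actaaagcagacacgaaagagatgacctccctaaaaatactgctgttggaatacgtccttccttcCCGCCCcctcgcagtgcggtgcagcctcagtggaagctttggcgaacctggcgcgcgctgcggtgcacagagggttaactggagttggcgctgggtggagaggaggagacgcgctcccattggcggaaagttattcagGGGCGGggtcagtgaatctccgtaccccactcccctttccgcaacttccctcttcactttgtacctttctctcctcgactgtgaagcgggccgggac
EFNA3 (chr1:155078587-155078886, plus strand): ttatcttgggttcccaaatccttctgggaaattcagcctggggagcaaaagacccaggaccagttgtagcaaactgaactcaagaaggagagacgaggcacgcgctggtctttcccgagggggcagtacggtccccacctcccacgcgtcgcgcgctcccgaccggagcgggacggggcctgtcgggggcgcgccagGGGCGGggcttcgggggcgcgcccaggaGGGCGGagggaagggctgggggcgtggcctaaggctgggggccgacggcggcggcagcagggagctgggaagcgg
EFNB2 held 3 GC boxes and was 78.7% G or C, EFNA4 held 2 at 58.3% and EFNA3 held 2 at 69.3%. The EFNA1 promoter, which is not printed, held 5 at 71.7%. Whether GC boxes bear on the side of a ligand was not tested. Of the 35116 promoters listed, 45% held a GC box on either strand, and the median G and C content was 58.7%. Among 74 promoters of the 47 guidance genes with an entry, 55 (74.3%) held a GC box, and the median G and C content was 66.2%. The CCAAT box, held by 34.6% of all promoters on either strand, stood in EFNB2 and EFNA4. The TATA box letters TATAAA, held by 11.5% on either strand, matched EFNB2 on the opposite strand alone, as TTTATA. None of the 3 printed promoters held a heat shock element, searched as GAANNTTC and TTCNNGAA, which 6.77% and 7.74% of all promoters hold.

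Of the 14 EPH receptors 0 had an unadjusted limma p under 0.05, where 5.58% of all probe sets did. For so few genes 0 lies near that share. With the replicate block 2 of the 14 did (14.3%, against 11.5% of all probe sets). EPHB4, a receptor of ephrin-B2, averaged 8.24 ± 0.02 in the VRTN arrays and 8.23 ± 0.07 in the empty vector arrays (SD, n = 3 each), a log2 fold change of 0.01 with a 95% confidence interval of -0.15 to 0.16. EPHB2 was at 0.01 (-0.14 to 0.16), EPHB3 at -0.05 (-0.25 to 0.15), EPHB1 at 0.11 (-0.10 to 0.32) and EPHB6, whose kinase domain is inactive, at 0.03 (-0.16 to 0.21). EPHA4, the receptor that takes ligands of both classes, had log2 signals of 7.66, 8.04 and 8.02 in the VRTN arrays and 8.01, 8.20 and 8.19 in the empty vector arrays. The groups overlapped, because the lowest empty vector array lay under 2 VRTN arrays, and the log2 fold change was -0.23 (SE 0.115, 95% confidence interval -0.49 to 0.04; limma adjusted p = 0.912). Within the same-numbered arrays EPHA4 was lower in VRTN in all 3, by 0.35, 0.16 and 0.17, and its unadjusted p was 0.0135 with the replicate block in limma (adjusted p = 0.327). Without VRTN replicate 1 its log2 fold change was -0.10. EPHA3, a receptor of A-class ligands, had 7.04, 7.29 and 7.48 in the VRTN arrays and 7.38, 7.42 and 7.57 in the empty vector arrays. It overlapped too, at a log2 fold change of -0.19 (SE 0.116), with an unadjusted p of 0.0385 with the replicate block in limma (adjusted p = 0.407). The EPHA3 log2 fold change was -0.07 without VRTN replicate 1 and -0.29 without VRTN replicate 3. EPHA1 (-0.08), EPHA2 (-0.05), EPHA7 (-0.02), EPHA8 (-0.07) and EPHA10 (0.06), which lacks kinase activity, overlapped between the groups. Over the 14 receptors the median log2 fold change was -0.03, which became 0.0025 without VRTN replicate 1.

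For several EPHA receptors the values differed more between replicate numbers than between plasmids. EPHA6 had log2 signals of 5.17, 5.59 and 5.83 in VRTN replicates 1, 2 and 3, and 5.34, 5.56 and 5.93 in the empty vector replicates. The values of the same number lay close together and the numbers lay far apart, with a range of 0.63 between the means of the numbers, against a log2 fold change of -0.08 between plasmids. EPHA6 stayed dimmer than the median of the negative controls throughout. That median also rose with the number: 5.59, 5.90 and 6.06 in the VRTN arrays and 5.36, 5.92 and 6.13 in the empty vector arrays. The part of this rise in the order of the EPHA6 values was not tested. EPHA5 had 5.44, 5.76 and 5.72 in the VRTN arrays and 5.44, 5.53 and 5.87 in the empty vector arrays. Its lowest value was that of replicate 1 in each group, and its log2 fold change was 0.03 (95% confidence interval -0.28 to 0.33). EPHA5 was brighter than the median of the negative controls on 1 array alone, so the same limit holds for it. EPHA5 turned negative without VRTN replicate 2 (-0.03), VRTN replicate 3 (-0.01), the first (-0.06) or the second (-0.01) empty vector replicate, and EPHA6 turned positive without the first VRTN replicate (0.11) or the third empty vector replicate (0.08). The means of the numbers were lowest in replicate 1 for EPHA3, EPHA4, EPHA5 and EPHA6, while EPHA1 (5.56 in replicate 1 and 5.24 in replicate 3) and the ligand EFNB1 (7.82 and 7.53) had their highest mean there. The SD between the numbers had a median of 0.16 over the 9 EPHA receptors, 0.04 over the 5 EPHB receptors, 0.07 over the 53 guidance genes and 0.08 over all probe sets. For 38 of the 53 guidance genes the range between the numbers exceeded the size of the log2 fold change. A range over 3 means of 2 arrays tends to exceed 1 difference between means of 3 arrays by noise alone. This count therefore does not measure an effect of the replicate number, and its share over all probe sets was not computed. What sets the replicate numbers apart was not tested.

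**Figure D2:**
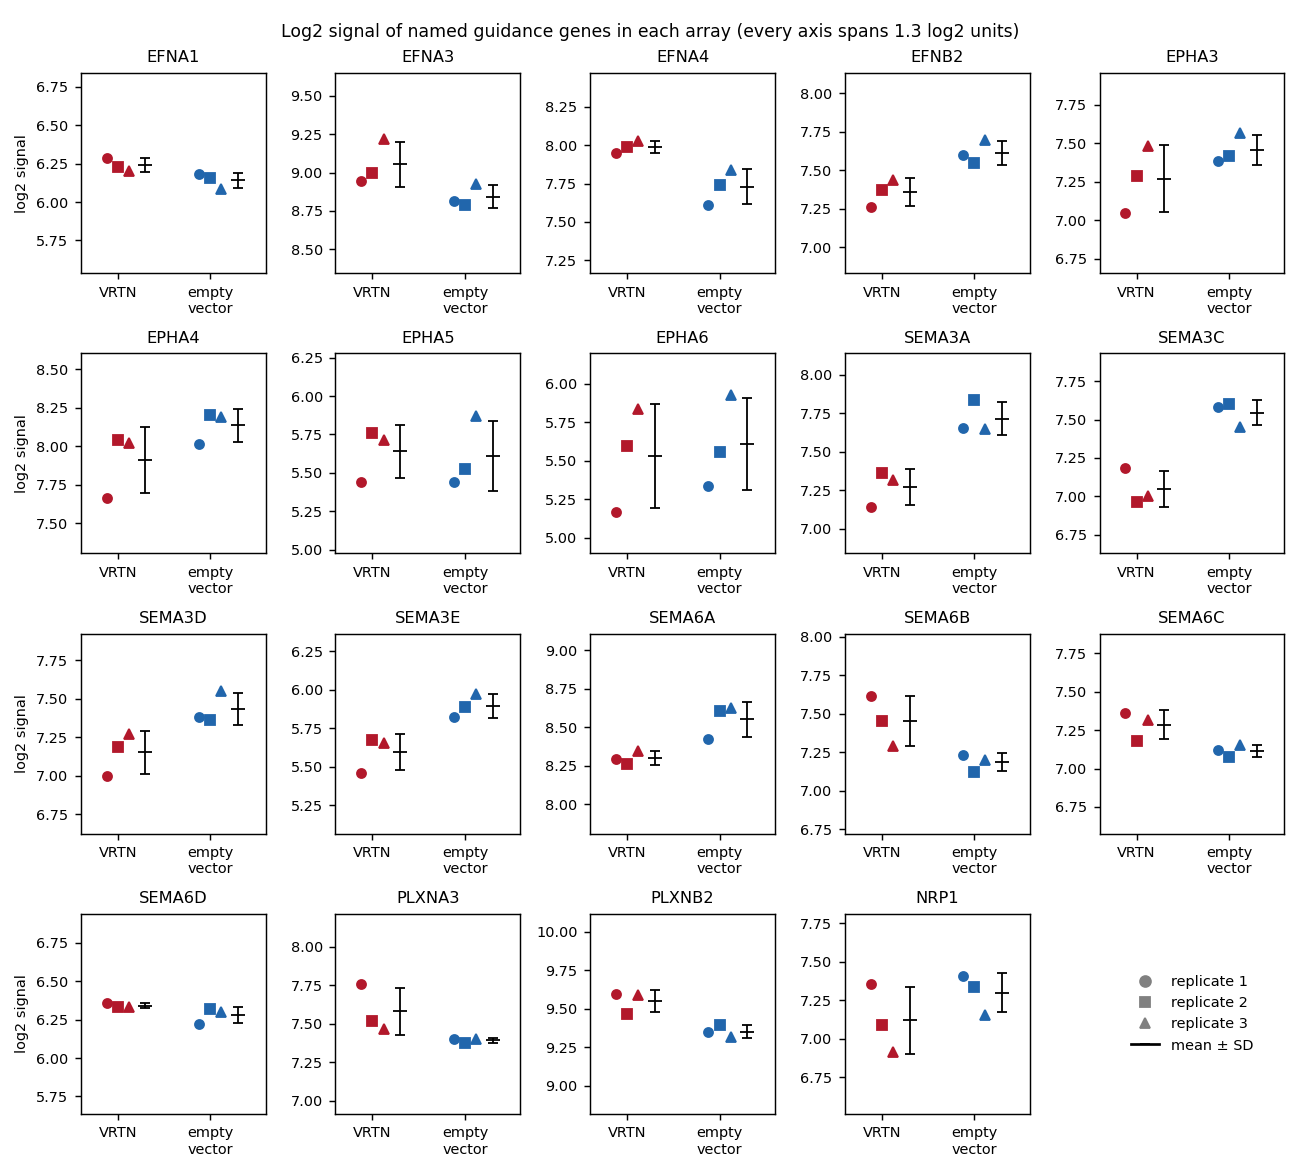
Log2 signal (vertical axis) of the 19 guidance genes given in every array, with VRTN arrays in red at the left and empty vector arrays in blue at the right of each panel. Symbols mark the replicate number and the black bars the mean ± SD of 3 arrays; SEMA3C and SEMA3A have a gap between the groups, while EPHA6 follows the replicate number.

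Class 3 semaphorins divided into 4 that were lower with VRTN without overlap, as were 5.92% of all probe sets, and 3 that overlapped. SEMA3C, a secreted ligand needed for the outflow tract of the heart, had log2 signals of 7.18, 6.96 and 7.0 in the VRTN arrays and 7.58, 7.60 and 7.45 in the empty vector arrays. The gap between the groups, 7.18 to 7.45, was wider than the range within either. Its log2 fold change was -0.50 (SE 0.085, 95% confidence interval -0.69 to -0.30; limma adjusted p = 0.358), and the difference was -0.40, -0.64 and -0.45 within the same-numbered arrays. With array weights in limma, which count less consistent arrays for less, the adjusted p of SEMA3C was 0.0567, and over all alternatives it ranged from there to 1.0.

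SEMA3A, the classic repellent of sensory axons, had 7.14, 7.36 and 7.31 in the VRTN arrays and 7.65, 7.84 and 7.65 in the empty vector arrays. Again the groups were well apart, and the log2 fold change was -0.44 (SE 0.089, 95% confidence interval -0.65 to -0.23; limma adjusted p = 0.498). SEMA3E, which binds PLXND1 without a neuropilin, had 5.46, 5.67 and 5.65 in the VRTN arrays and 5.82, 5.89 and 5.97 in the empty vector arrays. It was apart at a log2 fold change of -0.30 (SE 0.084; limma adjusted p = 0.710), but it exceeded the median of the negative controls in 1 of the 6 arrays, so the size of its difference is uncertain. SEMA3D, which acts on vessels and neural crest cells, had 6.998, 7.18 and 7.27 in the VRTN arrays and 7.38, 7.36 and 7.55 in the empty vector arrays. These groups were also apart, by a narrower margin (log2 fold change -0.28, SE 0.094; limma adjusted p = 0.819). The other class 3 members overlapped and had 95% confidence intervals on both sides of 0: SEMA3B at 0.06 (-0.21 to 0.33), SEMA3F at 0.04 (-0.17 to 0.25) and SEMA3G at 0.05 (-0.16 to 0.26). The median over the 7 class 3 members was -0.28, and -0.36, -0.17 and -0.29 within the same-numbered arrays.

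The 4 lower members have a position in common. SEMA3C, SEMA3E, SEMA3A and SEMA3D lie on chromosome 7 in this order, with HGF, CACNA2D1 and PCLO as the protein-coding genes between them, while SEMA3B, SEMA3F and SEMA3G lie on chromosome 3. This grouping was chosen after the values were seen, and the reference was used for gene order alone, since no source used here names the build behind the arrays' annotation. The genes between them did not all follow. PCLO, a scaffold protein of synapses, had 5.98, 6.24 and 6.36 in the VRTN arrays and 6.36, 6.66 and 6.49 in the empty vector arrays, narrowly apart at a log2 fold change of -0.31 (SE 0.118; limma adjusted p = 0.853). CACNA2D1, a calcium channel subunit, was at -0.07 (95% confidence interval -0.29 to 0.15). HGF, the growth factor ligand of MET, was at 0.01 (-0.20 to 0.22), with no array above the median of the negative controls. Of the 4 measured among the 3 genes on either side, GNAI1 was at -0.12 and apart, CD36 at -0.19, GRM3 at 0.02 and ELAPOR2 at 0.05, the last 3 with overlap. CD36 and GRM3 were not above the negative control median in any array. Protein-coding genes of these stretches without a value here, among them GNAT3, were not analysed.

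The ephrin genes EFNA4, EFNA3 and EFNA1 are likewise consecutive on chromosome 1, and RefSeq lists a readthrough gene, EFNA4-EFNA3, over the first pair. Transcripts of the readthrough gene cannot be split from those of EFNA4 and EFNA3 here. All 3 ephrins were apart on the higher side. Their 6 measured neighbours, DCST2, DCST1 and ADAM15 before and SLC50A1, DPM3 and KRTCAP2 after, overlapped between the groups. Of these 3 were higher and 3 lower, with log2 fold changes of -0.08 to 0.17. The highest, DCST1, was higher in each same-numbered pair, by 0.23, 0.14 and 0.14. Its unadjusted p with the replicate block in limma was 0.0253, against 0.128 for EFNA1. DCST1 exceeded the median of the negative controls in 3 of the 6 arrays.

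**Figure D3:**
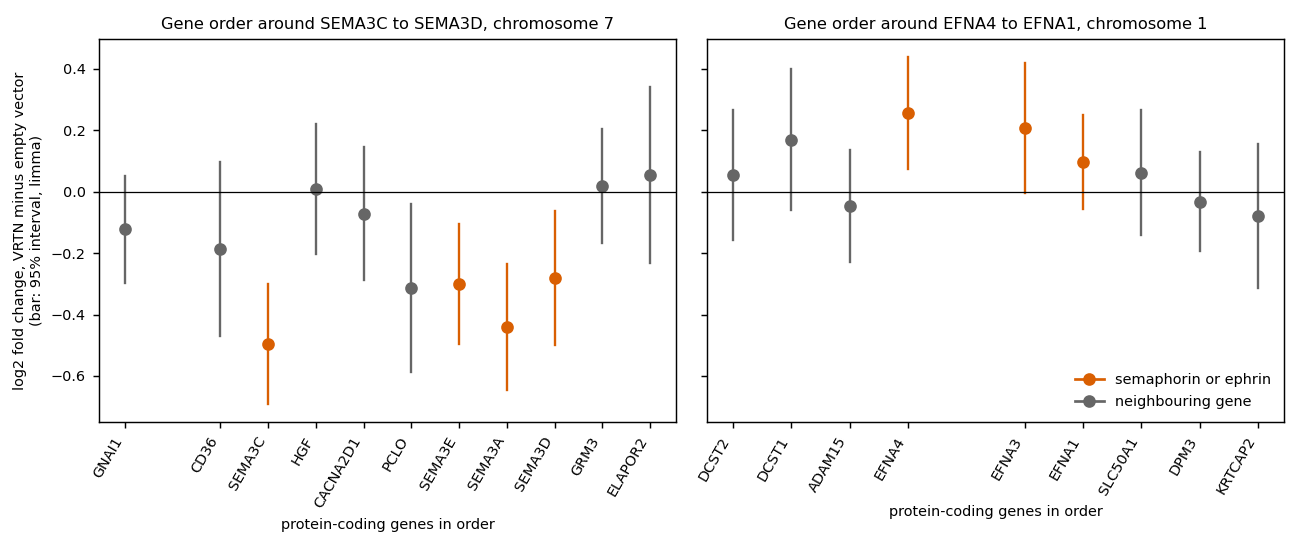
Log2 fold change (VRTN minus empty vector, vertical axis, with 95% limma confidence intervals) of protein-coding genes in their order on chromosome 7 around SEMA3C to SEMA3D (left) and on chromosome 1 around EFNA4 to EFNA1 (right). Semaphorins and ephrins are in orange and neighbours in grey; HGF at 0.01 and CACNA2D1 at -0.07 stand between SEMA3C at -0.50 and SEMA3E at -0.30, and places without a point are genes with no value here.

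Promoters of 3 of the lower semaphorins are shown to compare their make-up, from the same RefSeq table and with the GC box in capitals. SEMA3C has a pair of annotated starts, and for SEMA3E the first listed start is given.
SEMA3C, first start (chr7:80922340-80922639, minus strand): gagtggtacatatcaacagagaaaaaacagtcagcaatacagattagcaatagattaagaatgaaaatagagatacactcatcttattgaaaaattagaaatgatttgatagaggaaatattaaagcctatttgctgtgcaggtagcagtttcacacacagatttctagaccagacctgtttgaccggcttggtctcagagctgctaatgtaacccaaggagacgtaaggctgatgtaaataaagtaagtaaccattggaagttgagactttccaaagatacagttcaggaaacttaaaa
SEMA3C, second start (chr7:80919002-80919301, minus strand): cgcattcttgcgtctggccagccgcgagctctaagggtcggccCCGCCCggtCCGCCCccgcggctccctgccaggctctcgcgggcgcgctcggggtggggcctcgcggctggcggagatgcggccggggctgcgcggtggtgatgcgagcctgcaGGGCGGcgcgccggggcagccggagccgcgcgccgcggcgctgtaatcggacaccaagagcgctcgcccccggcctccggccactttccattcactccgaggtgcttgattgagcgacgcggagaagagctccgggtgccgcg
SEMA3E, first start (chr7:83649090-83649389, minus strand): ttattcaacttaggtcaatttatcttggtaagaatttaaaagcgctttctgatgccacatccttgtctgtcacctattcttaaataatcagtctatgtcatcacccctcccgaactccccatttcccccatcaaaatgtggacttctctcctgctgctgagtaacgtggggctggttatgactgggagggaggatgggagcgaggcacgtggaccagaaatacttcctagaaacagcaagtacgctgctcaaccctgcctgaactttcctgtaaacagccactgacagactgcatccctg
SEMA3D (chr7:85187007-85187306, minus strand): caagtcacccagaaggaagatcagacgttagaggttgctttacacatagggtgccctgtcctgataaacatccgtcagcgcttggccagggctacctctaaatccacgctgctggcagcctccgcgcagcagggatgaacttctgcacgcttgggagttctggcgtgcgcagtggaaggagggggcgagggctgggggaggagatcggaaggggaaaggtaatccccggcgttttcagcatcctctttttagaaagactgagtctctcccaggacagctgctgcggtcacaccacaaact
The first SEMA3C start was 36% G or C with 2 CpG dinucleotides and no GC box, and the second was 75.7% with 46 CpG dinucleotides and 3 GC boxes. The first SEMA3E start was 47.3% G or C and SEMA3D 57%, and neither held a GC box. A heat shock element stood at the first SEMA3C start (TTCNNGAA, held by 7.74% of all promoters and 2.7% of guidance gene promoters). Another stood at the first SEMA3E start (GAANNTTC, held by 6.77% and 10.8%). The second SEMA3C start, SEMA3D and the second SEMA3E start, which is not printed, held none. None of the motifs searched was in all of these promoters, and a match of letters does not show that a factor binds.

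All 4 class 6 semaphorins, which span the membrane and bind A-type plexins, separated the groups, where 11.3% of all probe sets did. Of the 4, 1 was lower (5.92% of all probe sets) and 3 were higher (5.39% of all), SEMA6D by a narrow margin. SEMA6A, a ligand of PLXNA2 and PLXNA4, had log2 signals of 8.29, 8.26 and 8.35 in the VRTN arrays and 8.42, 8.60 and 8.63 in the empty vector arrays. It was lower with VRTN without overlap (log2 fold change -0.25, SE 0.078, 95% confidence interval -0.43 to -0.07; limma adjusted p = 0.786). SEMA6B, a ligand of PLXNA4, had 7.62, 7.46 and 7.29 in the VRTN arrays and 7.23, 7.13 and 7.20 in the empty vector arrays. The VRTN values were spread out and still lay above the others, with a log2 fold change of 0.27 (SE 0.094; limma adjusted p = 0.838). SEMA6C had 7.36, 7.18 and 7.32 in the VRTN arrays and 7.12, 7.07 and 7.15 in the empty vector arrays. It was apart at a log2 fold change of 0.17 (SE 0.074; limma adjusted p = 0.892). SEMA6D, a ligand of PLXNA1, had 6.36, 6.33 and 6.33 in the VRTN arrays and 6.22, 6.32 and 6.30 in the empty vector arrays. The closest values of the groups were 6.33 and 6.32, and its log2 fold change of 0.06 had a 95% confidence interval of -0.09 to 0.21 and was 0.03 without empty vector replicate 1.

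Semaphorins of classes 4, 5 and 7 overlapped between the groups without exception. Of all probe sets 11.3% did not overlap, and for so few genes 0 is not far from that share. SEMA4D, which signals through PLXNB1, was at 0.02 (95% confidence interval -0.14 to 0.18), and its second probe set was at -0.03. SEMA4C, a ligand of PLXNB2, was at -0.10 (-0.30 to 0.10) and SEMA4G at -0.14 (-0.35 to 0.07). The thrombospondin-repeat semaphorins SEMA5A and SEMA5B were at -0.07 and -0.02, and the lipid-anchored SEMA7A was at 0.00 (-0.19 to 0.19). SEMA4A, SEMA4B and SEMA4F ranged from 0.02 to 0.09. Over all 20 semaphorins the median log2 fold change was 0.01, which turned to -0.04 without empty vector replicate 3.

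Of the 9 plexins 2 were higher with VRTN without overlap, as were 5.39% of all probe sets. PLXNB2, the receptor of SEMA4C, had log2 signals of 9.59, 9.47 and 9.59 in the VRTN arrays and 9.34, 9.39 and 9.31 in the empty vector arrays. The groups were apart, at a log2 fold change of 0.20 (SE 0.070, 95% confidence interval 0.04 to 0.36; limma adjusted p = 0.830). PLXNA3, which pairs with NRP2 in sensing SEMA3F, had 7.76, 7.52 and 7.47 in the VRTN arrays and 7.40, 7.38 and 7.40 in the empty vector arrays. The empty vector values lay close together and the VRTN values were spread out, with replicate 1 the highest. Its log2 fold change was 0.19 (SE 0.088; limma adjusted p = 0.895), and 0.10 without VRTN replicate 1. Some plexin receptors of the lower semaphorins stood near 0. PLXND1, which binds SEMA3E and serves SEMA3C, was at -0.02 (95% confidence interval -0.19 to 0.14). PLXNA1, which carries SEMA3A signals with NRP1, was at -0.07 (-0.23 to 0.08), PLXNA2 at 0.00 (-0.16 to 0.15) and PLXNA4 at 0.00 (-0.15 to 0.15). The co-receptors NRP1 and NRP2 were at -0.18 and -0.12, with overlap between the groups. PLXNB1 (0.02), PLXNB3 (0.03) and PLXNC1 (0.14), the receptor of SEMA7A, overlapped between the groups.

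Neuropilins, the co-receptors that give class 3 semaphorins their binding site and that also bind VEGF, were lower in each same-numbered comparison but overlapped between the groups. NRP1 had log2 signals of 7.35, 7.09 and 6.91 in the VRTN arrays and 7.40, 7.33 and 7.16 in the empty vector arrays. Its log2 fold change was -0.18 (SE 0.122, 95% confidence interval -0.46 to 0.10, limma adjusted p = 0.947), and the range between the means of the replicate numbers was 0.34. Such a range tends to be the larger by noise alone, and NRP1 was among the 3 genes named for the largest SD between numbers. The values therefore do not measure an effect of the replicate number. With the replicate block the unadjusted p of NRP1 was 0.0345 in limma (adjusted p = 0.395). Single arrays moved NRP1 to -0.08, without VRTN replicate 3, and to -0.30, without VRTN replicate 1. NRP2 was at -0.12 (95% confidence interval -0.28 to 0.05), and its second, dimmer probe set was at -0.26 (-0.51 to -0.01; limma adjusted p = 0.876).

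**Figure D4:**
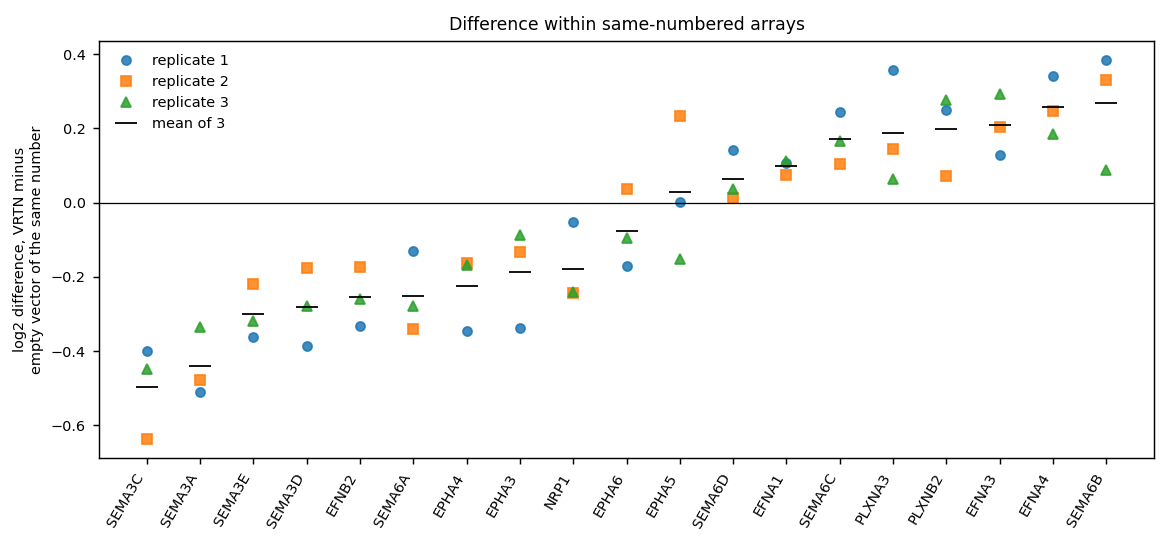
Log2 difference between the VRTN array and the empty vector array of the same replicate number (vertical axis) for the 19 guidance genes given in every array, ordered by their mean, which is the black bar. All 3 differences lie below 0 for SEMA3C (-0.40, -0.64 and -0.45) and above 0 for EFNA4 (0.34, 0.25 and 0.18), while those of EPHA5 and EPHA6 lie on both sides.

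All 3 same-numbered differences had 1 direction for 27 of the 53 guidance genes, 12 higher (15.8% of all probe sets) and 15 lower (19.1%), where 34.9% of all probe sets had it. Intracellular partners of the receptors were examined from lists of genes that act with the families. Of 28 measured partners of EPH receptors and ephrins 0 passed in limma over all probe sets, and 2 were higher and 2 lower at an unadjusted p under 0.05 (2.65% and 2.92% of all probe sets). With the replicate block 2 were higher and 3 lower (5.31% and 6.19% of all), and 5 did not overlap between the groups (17.9%, against 11.3% of all). SH2D3C, an adaptor that binds EPH receptors, averaged 7.68 ± 0.07 in the VRTN arrays and 7.24 ± 0.08 in the empty vector arrays (SD, n = 3 each), without overlap (log2 fold change 0.45, SE 0.074; limma adjusted p = 0.338). INPPL1, an inositol phosphatase that binds EPHA2, was at 0.19, the exchange factor VAV2 at -0.19 and the scaffold GRIP2 at -0.20. Of 27 measured partners of plexins and semaphorins 0 passed, and 4 were higher and 0 lower at an unadjusted limma p under 0.05 (2.65% and 2.92% of all probe sets), the same counts as with the replicate block (5.31% and 6.19% of all). Of these partners 5 did not overlap between the groups (18.5%, against 11.3% of all). L1CAM, an adhesion molecule that joins NRP1 in sensing SEMA3A, averaged 6.18 ± 0.11 in the VRTN arrays and 5.74 ± 0.11 in the empty vector arrays (SD, n = 3 each), without overlap (log2 fold change 0.44, SE 0.088; limma adjusted p = 0.498). L1CAM exceeded the median of the negative controls in 3 of the 6 arrays, so the size of its difference is uncertain. RRAS, a GTPase switched off by plexins, was at 0.26 (SE 0.069). MICAL2 (-0.15) and ARHGEF12 (-0.12), with the smallest p among the lower ones, did not reach an unadjusted p of 0.05.

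In the other guidance systems, netrins, slits, RGM proteins and their receptors, 0 of 24 measured genes passed in limma, and 1 was higher and 1 lower at an unadjusted p under 0.05 (2.65% and 2.92% of all probe sets). With the replicate block 2 were higher and 3 lower, 20.8% of the list against 11.5% of all probe sets, and 7 did not overlap between the groups (29.2%, against 11.3% of all, and 26.4% of the ephrin and semaphorin families). NTNG1, a lipid-anchored netrin relative, was at 0.17, but it did not exceed the median of the negative controls in any array. NTN1, the secreted attractant netrin-1, was at -0.17. NTN4 (0.13) did not reach an unadjusted p of 0.05, and the netrin receptor UNC5C (-0.19) had an unadjusted limma p of 0.0517, and of 0.0375 with the replicate block (adjusted p = 0.405). The median log2 fold change was -0.03 for the EPH and ephrin partners, 0.02 for the plexin and semaphorin partners and 0.00 for the netrin, slit and RGM list.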

How the data were processed

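The authors deposited log2 values, 1 per probe set and array, made by RMA at gene level with default settings on Human Gene 1.0 ST arrays, per the file headers. Per the submitters' processing notes the software was Affymetrix Expression Console 1.0, and the genome build is not given in the sources used here. RMA equalises the arrays' distributions, so a change common to most genes would be hidden. A second deposited table held the same values (0 of 33297 probe sets differed).

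The 4114 control probe sets were left out. Probe sets were named from the platform annotation (19460 with 1 symbol, 1752 with several, 7971 not named) and updated through a RefSeq table. EPHB2 and SEMA4C were named from the transcript accessions of the deposited table. Groups were compared on all 29183 probe sets with limma 3.58.1 in R 4.3.3 (lmFit, eBayes), two-sided, with Benjamini-Hochberg adjustment and a threshold of 0.05. SEs and intervals are without the block. The fit was tested on simulated data.

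Replicate numbers pair the arrays, with correlations of same-numbered deviations across probe sets of 0.535, 0.157 and 0.499. Numbers separated on principal component 1, which held 45.4% of the variance.

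Values in every array are given for EFNB2 and SEMA3C, for genes whose groups were apart or with an unadjusted p under 0.05 with or without the block, and for the 3 with the largest SD between replicate numbers. From each list of signalling partners or other guidance genes up to 2 genes per direction by smallest p are named. The results of 1 further list are not reported here. Members and lists were chosen with earlier results of these data known. The neighbouring genes and motifs were chosen after the values were seen. Alternatives were array weights, the replicate block, the second table, averaging a gene's probe sets, dropping the dimmest 40 percent, quantile normalization, centring on the median, a robust prior with trend, and leaving out arrays. Dropping the arrays of 1 replicate number was added after the data were seen. Python 3.11.15 with pandas 2.3.3 and matplotlib 3.10.9 was used.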

Additional observations from a re-analysis of the deposited data

How the results depend on the processing

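No guidance gene passed an adjusted p of 0.05 in limma under any of the 17 alternatives. The directions of 17 of the 19 genes given in every array held in all alternatives that measured them, and 7 of 320 values turned, all of EPHA5 or EPHA6. Much of this was fixed in advance. For the 14 genes named with groups apart, leaving out arrays could not turn the direction. The second table, the replicate block and the robust prior with trend leave every log2 fold change as it was. EPHA5 turned to -0.032 without VRTN replicate 2, to -0.010 without VRTN replicate 3, to -0.057 and -0.015 without the first and the second empty vector replicate (the highest being 0.16 without single arrays), and to -0.075 without replicate 2 in both groups. EPHA6 turned to 0.11 and 0.08 without VRTN replicate 1 and empty vector replicate 3 (from -0.23 to 0.11 without single arrays). Genes higher at an unadjusted p under 0.05 numbered 5 after quantile normalization, 6 with the replicate block, 1 without replicate 1 in both groups and 1 without replicate 2 in both groups, against 3, and 2 to 3 without single arrays. Genes lower numbered 4 to 9, against 6. All probe sets past the threshold numbered 14 with array weights, 8 with the replicate block, 1 to 4 without single arrays, and 1, 0 and 0 without replicate 1, 2 and 3 in both groups (with 1830, 720 and 1399 at an unadjusted limma p under 0.05), against 4. The median of the EPH receptors ran from -0.049 to 0.0025 without single arrays and was 0.0076 without replicate 1 in both groups. That of the semaphorins was -0.047 without replicate 3 in both groups, and that of the neuropilins ran from -0.23 to -0.080 without single arrays. The cause of these moves was not tested. The replicate block changed no call of a guidance gene. SEMA3E, EPHA5 and EPHA6 were not tested with the dimmest 40 percent removed. Members near the negative control median, such as SEMA3E, EPHA5 and EPHA6, are limited by signal over background.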
